A study of Mus musculus with 12 samples.

Results

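The transcripts that build ribosomes were followed in CD8+ T cells as a group of 53 nucleolar ribosome biogenesis genes. The members are the protein-coding genes whose symbols start with Utp, Nop and a number, Nol, Rrp or Polr1, together with Imp3, Imp4, Npm1, Ncl, Fbl, Dkc1, Gar1, Nhp2, Bop1, Pes1, Nip7, Rrs1 and Wdr12, with at least 120 counts in total over the 12 libraries. Of 55 protein-coding genes that the names took, Nol3 with 5 counts and Nol4 with 0 counts fell below that minimum, which left 53 of the 12145 protein-coding genes above it. The rule uses names and that minimum and no difference between groups, but it was written with earlier results of these data known. By role they were 5 subunits of RNA polymerase I, 3 proteins of box C/D snoRNPs and 4 of H/ACA snoRNPs. Another 21 were of the small subunit processome, 15 of large subunit assembly and 3 were abundant multifunctional nucleolar proteins. The last 2, Nol7 and Nol4l, were placed in no role here.

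In the nucleolus, RNA polymerase I transcribes the long precursor of the ribosomal RNAs. Small nucleolar ribonucleoproteins (snoRNPs) modify that precursor, the box C/D class by methylation and the H/ACA class by pseudouridylation, and the small subunit processome and the large subunit assembly factors fold and cleave it into the parts of both ribosomal subunits. Lymphocytes that leave quiescence and divide are known to expand their nucleoli and to make more ribosomes.

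The cells were OT-I CD8+ T cells, which carry a transgenic receptor for the SIINFEKL peptide of ovalbumin (strain OT-1 Tg C57BL/6J; the study's methods give Rag1- or Rag2-deficient donors), so that the donor cells of all groups shared this receptor. For Ag (5 libraries) and Ag+Costim (5 libraries) the donor cells were moved into C57BL/6J mice that still had their own lymphocytes, and the recipients were given the peptide with a control IgG or with agonist antibodies to CD134 (OX40) and CD137 (4-1BB), both costimulatory receptors of the TNF receptor superfamily. Naive (2 libraries) came from OT-I mice whose cells were not transferred, so Naive and the other groups differ in transfer as well as in antigen. The labels place the harvest of spleen and lymph nodes at day 4, the study's methods slightly earlier. CD8+ T cells were sorted before poly(A) RNA was amplified and sequenced in single-end reads. The study's methods describe a sort on CD8, a surface marker of the donor cells and the variable chains of the receptor. Age and sex of the animals behind each library are not given in the sources used here, and the labels do not tie libraries to animals. The study describes its replicates as individual biological ones, and the p-values below measure the spread between these libraries. The comparisons ask what antigen does alone, what costimulation adds to it and where the cells then stand against Naive.

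The libraries held 24006053 (Ag 4) to 49294934 counts. Rank correlations between libraries of a group were 0.984 in Naive, 0.966 to 0.982 in Ag and 0.971 to 0.983 in Ag+Costim. Summed T cell markers stood at 16078 to 17041 CPM (counts scaled to library size) in Naive, 15118 to 19370 in Ag and 6739 to 8886 in Ag+Costim, and Cd4 did not pass 2.39 CPM in any library. Erythroid markers summed to 169 and 2316 CPM in Naive, 589 to 6729 in Ag with Ag 4 the highest, and 14.0 to 212 in Ag+Costim. B cell markers summed to 1172 and 1192, 1174 to 1730, and 556 to 1140 CPM (Ag+Costim 4 the highest), and myeloid markers to 34.5 and 123, 63.0 to 196, and 88.8 to 148 CPM, in the same order of groups. Proliferation markers summed to 149 CPM in both Naive libraries, 592 to 1187 in Ag and 2180 to 2768 in Ag+Costim. The sequencing core listed an input amount of 0 for every Ag library, 10 for every Ag+Costim library and 8.5 and 10.7 for Naive, with no unit, so input and treatment cannot be told apart. What part these differences had in the results below was not tested. In such bulk samples fewer cells of a type and less RNA per cell cannot be told apart either, and a CPM gives a gene's part of the library, not its copies per cell.

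Together the 53 genes took the smallest part of the library after antigen alone. They made up 0.571% and 0.556% of the annotated counts in Naive, 0.480%, 0.460%, 0.485%, 0.462% and 0.454% in Ag, and 0.718%, 0.740%, 0.684%, 0.534% and 0.617% in Ag+Costim. Every Ag library lay below both Naive libraries, and every Ag+Costim library lay above all of Ag, whereas Ag+Costim 4 lay below both Naive libraries. Group means were 0.563% ± 0.0105 (SD, n = 2), 0.468% ± 0.0137 (n = 5) and 0.659% ± 0.0838 (n = 5). Ncl and Npm1 alone supplied 14.1% to 23.8% of the members' counts in a library. Ag+Costim 4 was the lowest library of its group for 45 of the 53 genes, against 27.3% of all genes tested, and Ag 4 for 23 of 53 in its group, against 30.0%.

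**Figure D1:**
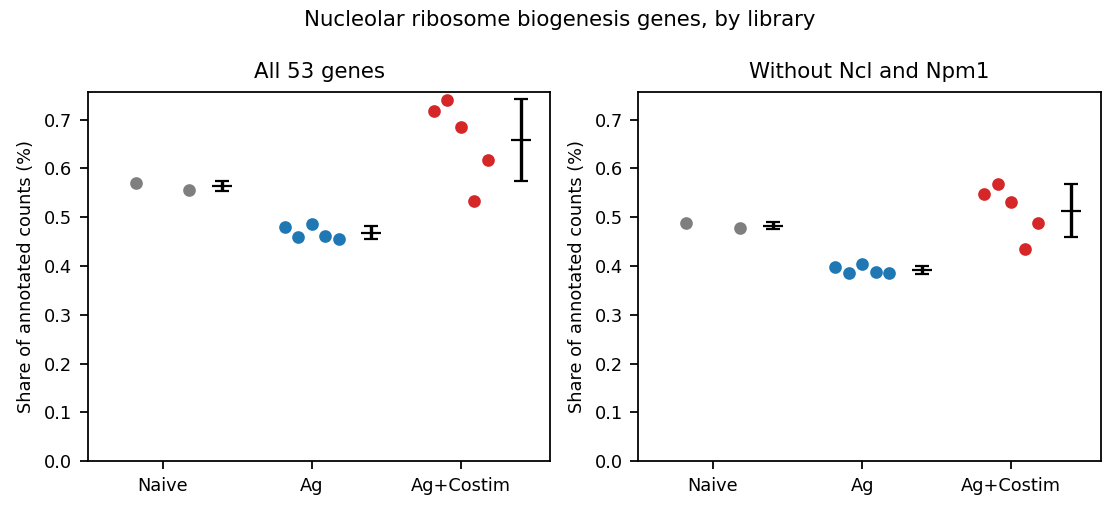
Share of annotated counts (%, axis from 0) held by the 53 genes, left, and by the 51 that remain without Ncl and Npm1, right. Each point is a library and the bar beside it is the group mean with its SD. Ag lies lowest at 0.454% to 0.485%, and Ag+Costim spreads most, from 0.534% to 0.740%.

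More of these genes were lower than higher in Ag than in Naive. From Naive to Ag, called with antigen below, 23 of 53 fell (43.4%, against 22.5% of the 18817 genes tested), 9 rose (17.0%, against 24.2%) and 21 did not pass the test, an edgeR quasi-likelihood test with Benjamini-Hochberg adjustment over all genes tested, called at an adjusted p below 0.05. The median log2 fold change was -0.27, beside 0.02 for all genes tested. All 5 Ag libraries lay below both Naive libraries for 29 members (29.2% of all genes tested did) and above both for 12 (27.2%). These counts lean on the Naive pair, as do those of all genes tested. Without Naive 1, 14 members fell, against 15.4% of all genes tested in that fit. Without Naive 2, 5 rose, against 14.5%. Without Ag 4 and Ag+Costim 4, an alternative added after the data had been seen, 24 fell and 13 rose. Of all genes tested there, 25.8% fell and 28.1% rose. All 53 members passed edgeR's filter on low counts.

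With costimulation most of them were higher than with antigen alone. From Ag to Ag+Costim, called with costimulation below, 35 of 53 rose (66.0%, against 26.6% of all genes tested), 7 fell (13.2%, against 26.5%) and 11 did not pass. The median was 0.47, beside -0.05 for all genes tested, and the libraries did not overlap for 30 that lay higher (21.3% of all genes tested) and 6 that lay lower (18.5%). Upper-quartile scaling moved the median of all genes tested to -0.24, and 21.6% of them rose and 33.7% fell. Of the members, 25 rose and 11 fell with a median of 0.28. The distance from all genes thus stayed at 0.52 on the log2 scale. Without Ag 4 and Ag+Costim 4, 37 rose and 7 fell, against 28.0% and 27.8% of all genes tested.

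Set against Naive, Ag+Costim cells held 23 of 53 genes higher (43.4%, against 26.9% of all genes tested) and 4 lower (7.55%, against 25.4%), and 26 did not pass. The median was 0.28, beside -0.02 for all genes tested. All Ag+Costim libraries lay above Naive for 28 members (31.7% of all genes tested) and below for 5 (34.2%), so the share that lay above was larger than in all genes and the share below smaller. Upper-quartile scaling gave 19 higher and 8 lower, against 23.5% and 30.0% of all genes tested. On log2(FPKM + 1), the authors' length-scaled values, 16 were higher and 10 lower with a median of 0.0397. Of all genes tested on that scale 21.2% were higher and 35.8% lower, with a median of -0.12. Without Naive 2, 2 members were lower, against 16.8% of all genes tested. Without Ag 4 and Ag+Costim 4, 32 were higher and 4 lower, against 29.6% and 28.5%. The 3 comparisons share libraries pair by pair, so their counts are given side by side and are not independent.

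**Figure D2:**
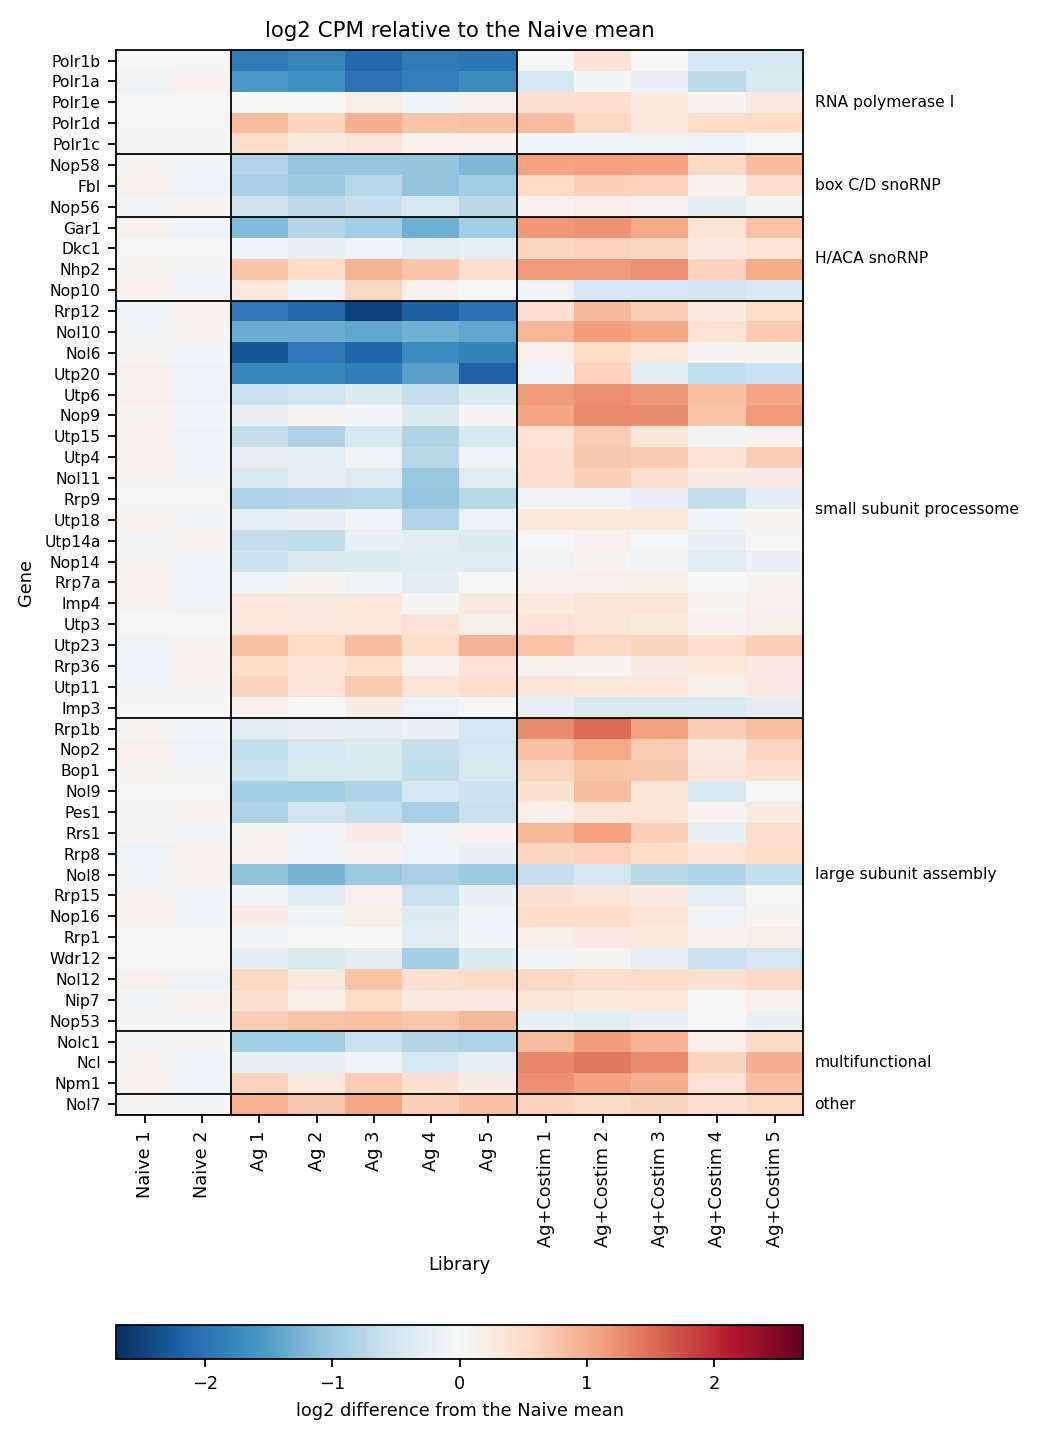
log2 CPM of 51 genes (rows, by role) in the 12 libraries (columns), as the difference from the mean of the Naive libraries; blue is lower, red is higher. Nol4l and Utp14b, at 1.54 CPM or less, are left out. The Ag columns are darkest blue in Polr1a, Polr1b, Rrp12, Nol6, Nol10 and Utp20, and Ag+Costim 4 is paler than its neighbours in most rows.

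Levels of different genes were set side by side only per length. Mean FPKM (fragments scaled to transcript length and library size, summed over a gene's transcripts) was highest for Npm1, at 241 ± 32.5 (SD, n = 2) in Naive, 269.6 ± 48.5 (n = 5) in Ag and 383 ± 84.6 (n = 5) in Ag+Costim. Nop10, a small protein of H/ACA snoRNPs, came next in Naive and Ag, with 201 ± 18.5 and 204 ± 33.2 FPKM. In Ag+Costim it had 131 ± 16.4 FPKM, below Nop56 at 192 ± 29.4, Nhp2 at 189 ± 28.5 and Rrp1 at 175 ± 6.34. Npm1 and Nop10 did not differ beyond their spread in Naive. At the other end, Utp20 averaged 3.75 ± 0.45, 1.06 ± 0.22 and 2.76 ± 0.92 FPKM, and Polr1a 7.80 ± 0.13, 2.85 ± 0.92 and 4.59 ± 0.76 FPKM. Nol4l and Utp14b, at 0.50 FPKM or less in every group, were the lowest.

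The RNA polymerase I subunits split. Polr1a (chr6:71909053-71984935, GRCm38), the largest subunit, and Polr1b (chr2:129100995-129126594), the second largest, form the catalytic core and belong to this polymerase alone. Polr1a stood at CPM of 49.1 and 56.6 in Naive, 17.9, 16.6, 13.3, 14.7 and 16.3 in Ag and 38.4, 50.6, 46.6, 32.5 and 40.2 in Ag+Costim. All Ag libraries were below Naive, and all Ag+Costim libraries were above Ag and on both sides of the lower Naive library. Its log2 fold change came to -1.74 ± 0.16 (SE; adjusted p = 1.76e-06) in Ag against Naive and 1.40 ± 0.13 (adjusted p = 1.00e-06) from Ag to Ag+Costim. Polr1b repeated that with CPM of 58.1 and 57.3 in Naive, 15.3, 16.4, 13.3, 15.4 and 14.8 in Ag and 57.6, 75.5, 57.8, 42.2 and 41.7 in Ag+Costim. Its Ag values lay far below both other groups, which overlapped, and the changes were -1.94 ± 0.18 (adjusted p = 2.58e-06) and 1.87 ± 0.15 (adjusted p = 3.63e-07). Against Naive, neither passed in Ag+Costim, at -0.34 ± 0.16 (adjusted p = 0.0932) and -0.07 ± 0.19 (adjusted p = 0.778).

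Polr1c and Polr1d, which form a pair that RNA polymerase III also contains, did not follow the core subunits. Polr1d CPM were 77.4 and 75.7 in Naive, 138, 117, 148, 131 and 133 in Ag and 136, 113, 92.1, 108 and 111 in Ag+Costim. Every antigen-exposed library was above Naive, with Ag and Ag+Costim overlapping. Polr1d rose by 0.80 ± 0.14 on the log2 scale from Naive to Ag (adjusted p = 0.000366) and was called lower from Ag to Ag+Costim at -0.25 ± 0.10 (adjusted p = 0.0485), a call that 14 of 21 alternatives changed. Polr1c CPM were 46.1 and 44.5 in Naive, 64.1, 54.6, 57.7, 48.7 and 48.1 in Ag and 43.5, 43.7, 42.8, 40.4 and 45.5 in Ag+Costim. Ag+Costim lay below all of Ag and overlapped Naive. The change from Ag to Ag+Costim was -0.34 ± 0.09 (adjusted p = 0.00564), which went to -0.13 (adjusted p = 0.193) after each library's trend on exon length was removed (the length correction), and from Naive to Ag the value was 0.27 ± 0.12 (adjusted p = 0.0781). Polr1e, an accessory subunit, rose by 0.24 ± 0.09 from Ag to Ag+Costim (adjusted p = 0.0377), which also changed under 14 of the 21. Znrd1, Twistnb and Cd3eap, further subunits that the rule's names do not take, are counted among the factors below. Znrd1 rose by 0.62 ± 0.13 from Naive to Ag (adjusted p = 0.00156) and fell by 0.72 ± 0.10 from Ag to Ag+Costim (adjusted p = 2.48e-05). In these comparisons Cd3eap was at -0.58 (adjusted p = 0.0213) and 0.24 (adjusted p = 0.196). Twistnb did not pass, at -0.22 and -0.10. Whether the split goes with sharing between polymerases was not tested.

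Transcripts of all 3 box C/D proteins fell from Naive to Ag and rose from Ag to Ag+Costim. Fibrillarin, Fbl (chr7:28169710-28179269), is the methyltransferase of these particles, and its CPM were 122 and 108 in Naive, 62.5, 58.0, 67.7, 54.7 and 60.3 in Ag and 167, 181, 178, 123 and 156 in Ag+Costim. The groups did not overlap and ordered as Ag, Naive, Ag+Costim, with Ag+Costim 4 at the upper edge of Naive. Fbl changed by -0.93 ± 0.13 (SE; adjusted p = 8.39e-05), 1.41 ± 0.11 (adjusted p = 2.04e-07) and 0.48 ± 0.14 (adjusted p = 0.0115) from Naive to Ag, Ag to Ag+Costim and Naive to Ag+Costim, the last a call that 3 of the 21 alternatives changed. Nop58 (chr1:59684971-59719044), a core scaffold protein, had CPM of 110.2 and 105 in Naive, 61.9, 52.0, 52.4, 51.4 and 46.2 in Ag and 229, 232, 229.6, 158 and 192 in Ag+Costim. Again no groups overlapped, and every Ag+Costim library exceeded every Ag library by a wide margin. The same 3 changes were -1.03 ± 0.14 (adjusted p = 6.84e-05), 1.98 ± 0.12 (adjusted p = 3.26e-08) and 0.95 ± 0.16 (adjusted p = 0.000219). Nop56, its partner in the core, fell by 0.62 ± 0.12 and rose by 0.63 ± 0.09, but stood at 0.01 ± 0.12 against Naive (adjusted p = 0.963). Nop56 and Nop58 carry snoRNA genes in their introns, on the same strand, and reads from these cannot be told apart from the host where they overlap it.

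**Figure D3:**
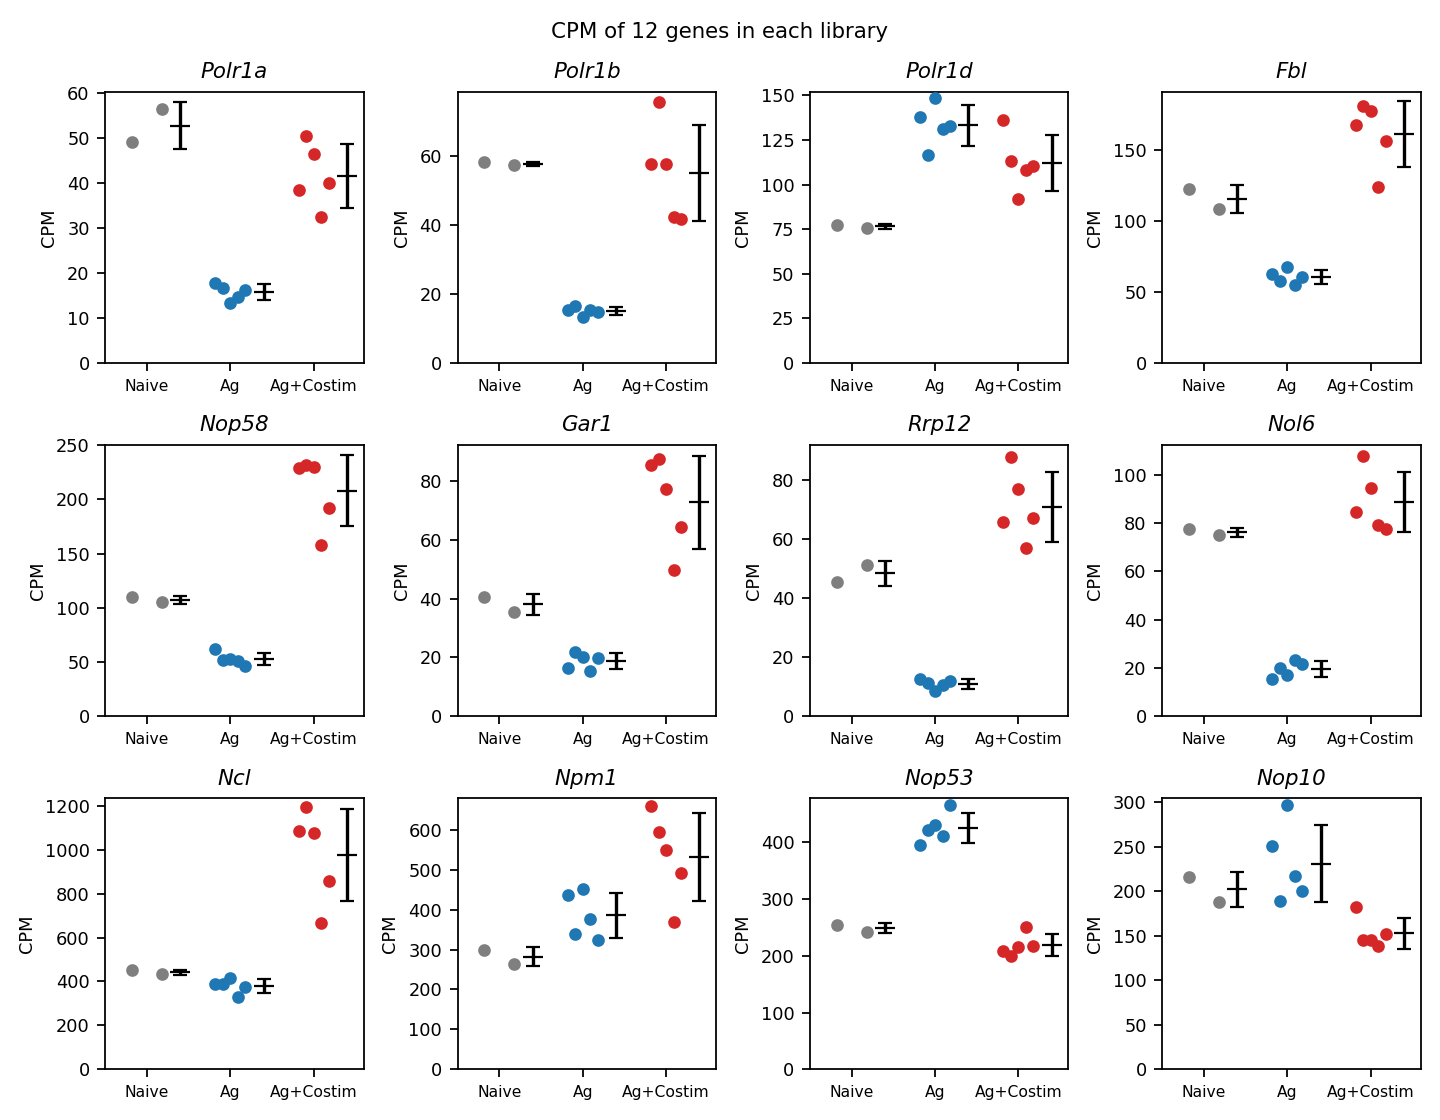
CPM (each axis from 0) of 12 genes in each library; points are libraries and the bar is the group mean with its SD. Polr1a, Polr1b, Fbl, Nop58, Gar1, Rrp12 and Nol6 are lowest in Ag, Ncl is highest in Ag+Costim at 668 to 1193, and Nop53 is highest in Ag at 395 to 465.

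The H/ACA proteins bind each other in one particle, but their transcripts did not move alike. Dyskerin, Dkc1, the pseudouridine synthase, had CPM of 150.0 and 152 in Naive, 137, 132, 140.3, 124 and 126 in Ag and 227, 234, 225, 177 and 195 in Ag+Costim. Ag+Costim lay above the other groups without overlap, and Ag lay just below Naive. Dkc1 rose by 0.68 ± 0.09 (adjusted p = 1.72e-05) over Ag and by 0.49 ± 0.12 over Naive (adjusted p = 0.00327), and Naive to Ag was -0.19 ± 0.11 (adjusted p = 0.178). Gar1 (chr3:129824912-129831396) fell by 1.02 ± 0.19 from Naive to Ag and rose by 1.96 ± 0.16 from Ag to Ag+Costim (adjusted p = 3.34e-07), from 15.2 to 21.8 CPM in Ag to 49.7 to 87.5 in Ag+Costim. Nhp2 rose by 0.69 ± 0.16 from Naive to Ag (adjusted p = 0.0036) and was called higher from Ag to Ag+Costim at 0.35 ± 0.12 (adjusted p = 0.0232), where the libraries overlapped and 6 of the 21 alternatives changed the call. Nop10, in contrast, had CPM of 216 and 188 in Naive, 250.2, 189, 297, 217 and 201 in Ag and 183, 145, 145, 139 and 152 in Ag+Costim. Its Ag+Costim libraries were below all Ag and Naive libraries, while Ag and Naive overlapped. Nop10 fell by 0.60 ± 0.12 on the log2 scale from Ag to Ag+Costim (adjusted p = 0.00111), and its lower call against Naive, -0.41 ± 0.16 (adjusted p = 0.0478), changed under 10 of the 21 alternatives. The value from Ag to Ag+Costim was -0.36 (adjusted p = 0.0123) after the length correction.

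Rrp12, of the small subunit processome, had the largest fitted change of the members from Naive to Ag and from Ag to Ag+Costim. Of the 21 processome genes 10 fell (47.6%, against 22.5% of all genes tested) and 4 rose (19.0%, against 24.2%) from Naive to Ag. From Ag to Ag+Costim 14 rose (66.7%, against 26.6%) and 2 fell (9.52%, against 26.5%), and from Naive to Ag+Costim 7 rose (33.3%, against 26.9%) and 1 fell (4.76%, against 25.4%). Rrp12 (chr19:41862851-41896173) is a large factor needed for maturation and export of the small subunit, and its CPM were 45.3 and 51.3 in Naive, 12.7, 11.1, 8.48, 10.5 and 11.9 in Ag and 65.8, 87.8, 76.8, 57.0 and 66.9 in Ag+Costim. No groups overlapped, and the highest Ag library, at 12.7, stood far below the lowest library of the other groups, at 45.3. Rrp12 fell by 2.14 ± 0.16 (SE; adjusted p = 4.40e-07) with antigen and rose by 2.69 ± 0.14 (adjusted p = 1.43e-08) with costimulation, to 0.55 ± 0.18 against Naive (adjusted p = 0.0178), a call that 4 of the 21 alternatives changed. Nol6 (chr4:41114427-41124455), a subunit of the UTP-C complex, had CPM of 77.6 and 75.0 in Naive, 15.4, 20.0, 17.0, 23.4 and 21.7 in Ag and 84.5, 108, 94.8, 79.1 and 77.8 in Ag+Costim. No groups overlapped, although the lowest Ag+Costim library was above Naive by a narrow margin. Its 3 changes were -1.97 ± 0.15 (adjusted p = 5.65e-07), 2.19 ± 0.13 (adjusted p = 3.23e-08) and 0.22 ± 0.17 (adjusted p = 0.281). Nol10 (chr12:17348458-17430095) had CPM of 23.6 and 25.5 in Naive, 9.68, 9.78, 9.25, 10.0 and 9.31 in Ag and 45.8, 53.6, 50.5, 32.3 and 40.1 in Ag+Costim. The Ag values spread over less than 1 CPM, and no groups overlapped. Nol10 fell by 1.36 ± 0.16, then rose by 2.21 ± 0.13 (adjusted p = 3.04e-08), to 0.85 ± 0.17 over Naive (adjusted p = 0.000962).

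Utp20, a very large scaffold protein, had CPM of 24.8 and 21.3 in Naive, 6.8, 6.74, 6.29, 8.39 and 5.07 in Ag and 21.2, 35.6, 18.6, 14.4 and 15.2 in Ag+Costim. Ag was below everything else, 4 of the 5 Ag+Costim libraries lay below both Naive libraries, and Ag+Costim 2 was the highest of all. Utp20 changed by -1.80 ± 0.28 (SE; adjusted p = 0.000175) and 1.66 ± 0.23 (adjusted p = 4.39e-05), with -0.14 ± 0.30 against Naive (adjusted p = 0.719). Utp6, of the UTP-B complex, and Nop9, an RNA-binding protein of the early precursor, ended above Naive. Utp6 CPM were 61.2 and 51.5 in Naive, 37.1, 38.8, 43.8, 36.5 and 42.9 in Ag and 125, 133, 126, 98.3 and 117 in Ag+Costim. Ag lay below Naive and Ag+Costim above it, at -0.50 ± 0.12 (adjusted p = 0.00477) and 1.09 ± 0.13 (adjusted p = 1.84e-05). Nop9 CPM were 66.5 and 61.1 in Naive, 55.0, 66.9, 62.7, 48.8 and 66.7 in Ag and 134, 154, 151, 109 and 142 in Ag+Costim. Ag overlapped Naive and Ag+Costim lay above both, by 1.20 ± 0.11 over Ag (adjusted p = 1.32e-06) and 1.11 ± 0.16 over Naive (adjusted p = 5.99e-05).

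Several processome genes did not follow that direction. Utp23 had CPM of 19.6 and 21.5 in Naive, 35.8, 29.9, 36.5, 28.4 and 38.7 in Ag and 35.0, 30.3, 31.1, 28.1 and 31.9 in Ag+Costim, so both antigen-exposed groups lay above Naive and overlapped each other. It rose by 0.72 ± 0.14 on the log2 scale from Naive to Ag (adjusted p = 0.00115), and in Ag+Costim it stood at -0.11 ± 0.11 against Ag (adjusted p = 0.386). Utp11 also rose from Naive to Ag, by 0.51 (adjusted p = 0.0021). Rrp36 and Utp3 were called higher there at 0.36 (adjusted p = 0.0254) and 0.29 (adjusted p = 0.03), calls that 6 and 4 of the 21 alternatives changed, and Utp3 stood at 0.15 (adjusted p = 0.259) after the length correction. Imp3, which with Imp4 helps the U3 snoRNA pair with the precursor, had CPM of 71.0 and 71.7 in Naive, 77.8, 70.9, 82.3, 65.1 and 71.7 in Ag and 59.0, 52.6, 53.1, 53.7 and 57.3 in Ag+Costim. Its Ag+Costim libraries were below all others. Imp3 fell by 0.42 ± 0.08 from Ag to Ag+Costim (adjusted p = 0.00048) and stood at -0.37 ± 0.10 against Naive (adjusted p = 0.00729), and from Naive to Ag it was at 0.05 (adjusted p = 0.746). The length correction moved the value from Ag to Ag+Costim to -0.19 (adjusted p = 0.0494). Imp4 passed in none of the 3 comparisons, at 0.22, 0.02 and 0.24. After the length correction it passed in all 3, at 0.66 (adjusted p = 0.00107), -0.33 (adjusted p = 0.0109) and 0.34 (adjusted p = 0.0403).

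The remaining processome genes include other early-acting factors. Utp4, Utp15 and Nol11, of the UTP-A complex, rose from Ag to Ag+Costim by 0.87, 0.95 and 0.86. Utp18, Utp14a, Nop14 and Rrp9, a protein of the U3 particle, rose by 0.47, 0.43, 0.28 and 0.58. Rrp7a, the partner of Nol6, was called higher at 0.19 ± 0.08 (adjusted p = 0.0463), but 15 of the 21 alternatives changed the call and the value turned to -0.00149 under upper-quartile scaling and -0.0474 after a correction for length. Utp14b, a retrogene copy of Utp14a that lies within Acsl3 on the same strand, stayed at 0.219 to 1.54 CPM, and reads from near-identical sequence may have been divided between the copies.

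Of the 15 large subunit factors 5 fell (33.3%, against 22.5% of all genes tested) and 2 rose (13.3%, against 24.2%) from Naive to Ag. From Ag to Ag+Costim 9 rose (60.0%, against 26.6%) and 1 fell (6.67%, against 26.5%), and from Naive to Ag+Costim 6 rose (40.0%, against 26.9%) and 1 fell (6.67%, against 25.4%). Bop1, Pes1 and Wdr12 form the PeBoW complex, needed for maturation of the large subunit. Bop1 and Pes1 changed by -0.51 ± 0.12 and -0.69 ± 0.11 from Naive to Ag and rose by 1.08 ± 0.09 (SE; adjusted p = 5.44e-07) and 0.94 ± 0.09 (adjusted p = 1.11e-06), while Wdr12 did not pass, at -0.43 ± 0.19 and 0.19 ± 0.14 (adjusted p = 0.0723 and 0.291). Rrp1b CPM were 37.1 and 35.3 in Naive, 29.8, 31.3, 30.7, 32.1 and 26.6 in Ag and 87.8, 104, 77.4, 57.8 and 63.9 in Ag+Costim. Ag+Costim lay above all other libraries, and Ag just below Naive. Rrp1b rose by 1.38 ± 0.14 (adjusted p = 2.53e-06) over Ag and 1.11 ± 0.19 (adjusted p = 0.000333) over Naive, whereas its paralogue Rrp1 rose by 0.28 ± 0.08 over Ag and stood at 0.19 ± 0.10 against Naive (adjusted p = 0.123). Nop2, a methyltransferase of large subunit RNA, rose by 1.22 ± 0.12, Nol9, a polynucleotide kinase, by 1.02 ± 0.19, and Rrp8 and Rrs1 by 0.57 and 0.60. The Rrs1 libraries overlapped, as Ag+Costim 4, at 34.6 CPM, lay below all of Ag, at 36.6 to 45.9 CPM.

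Nop53 (chr7:15936183-15946074), a factor that recruits the RNA exosome to the large subunit precursor, had the reverse pattern. Its CPM were 255 and 243 in Naive, 395, 422, 431, 412 and 465 in Ag and 209, 199, 216, 252 and 217 in Ag+Costim. Ag lay above both other groups without overlap, and Ag+Costim overlapped Naive. Nop53 rose by 0.77 ± 0.11 (adjusted p = 7.09e-05) and then fell by 0.96 ± 0.08 on the log2 scale (adjusted p = 4.31e-07), to -0.19 ± 0.10 against Naive (adjusted p = 0.147). The snoRNA gene Snord23 overlaps Nop53 on the same strand, so its reads cannot be told apart from the host there. Nol8 had CPM of 63.8 and 68.6 in Naive, 31.1, 27.7, 33.0, 36.0 and 33.8 in Ag and 42.7, 46.8, 39.2, 37.6 and 41.8 in Ag+Costim. The groups did not overlap, with Ag lowest and Naive highest, and its changes were -1.03 ± 0.12 (adjusted p = 1.07e-05), 0.36 ± 0.09 (adjusted p = 0.00427) and -0.67 ± 0.12 (adjusted p = 0.000337). The value from Ag to Ag+Costim went to 0.03 (adjusted p = 0.832) after the length correction. Nol12 rose with antigen by 0.51. Nip7, Nop16 and Rrp15 passed in no comparison.

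Transcripts of the 3 abundant multifunctional proteins were higher in Ag+Costim than in Ag, without overlap for Ncl and Nolc1 and with overlapping libraries for Npm1. Nucleolin, Ncl (chr1:86344719-86359400), a major RNA-binding protein of the nucleolus, had CPM of 450.3 and 433 in Naive, 388, 389.9, 417, 327 and 374 in Ag and 1088, 1193, 1075, 668 and 857 in Ag+Costim. Every Ag+Costim library was above every other library, and Ag was a little below Naive. Ncl rose by 1.36 ± 0.14 (SE; adjusted p = 2.37e-06) over Ag and 1.14 ± 0.19 (adjusted p = 0.000236) over Naive, and Naive to Ag was -0.22 ± 0.18 (adjusted p = 0.332). Among the genes that overlap Ncl on the same strand are Snora75 and Snord82, whose reads cannot be told apart from the host there. Nucleophosmin, Npm1 (chr11:33152287-33163206), a chaperone of the granular zone of the nucleolus, had CPM of 299 and 265 in Naive, 436, 339, 452, 377 and 324 in Ag and 659.9, 593, 549, 368 and 493 in Ag+Costim. Ag lay above Naive and overlapped Ag+Costim, whose lowest library was again Ag+Costim 4. Npm1 was at 0.45 ± 0.20 from Naive to Ag (adjusted p = 0.0755) and rose by 0.47 ± 0.15 (adjusted p = 0.0155) and 0.92 ± 0.20 (adjusted p = 0.00185) in the comparisons with Ag+Costim. Under upper-quartile scaling the first of these rises was 0.27 (adjusted p = 0.139). Nolc1, a chaperone of snoRNPs, fell by 0.81 ± 0.19 and rose by 1.57 ± 0.15. Nol7, placed in no role here, had CPM of 114 and 109.7 in Naive and 213, 186, 229.7, 174 and 194 in Ag. In Ag+Costim it had 171, 161, 171, 153 and 164. Its groups did not overlap, with Ag highest, and it rose by 0.83 ± 0.11 (adjusted p = 5.78e-05) and then fell by 0.28 ± 0.08 (adjusted p = 0.0113). The latter value was -0.18 (adjusted p = 0.0799) after the length correction. Nol4l, at 1.30 CPM or less, was lower than Naive in both antigen-exposed groups.

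**Figure D4:**
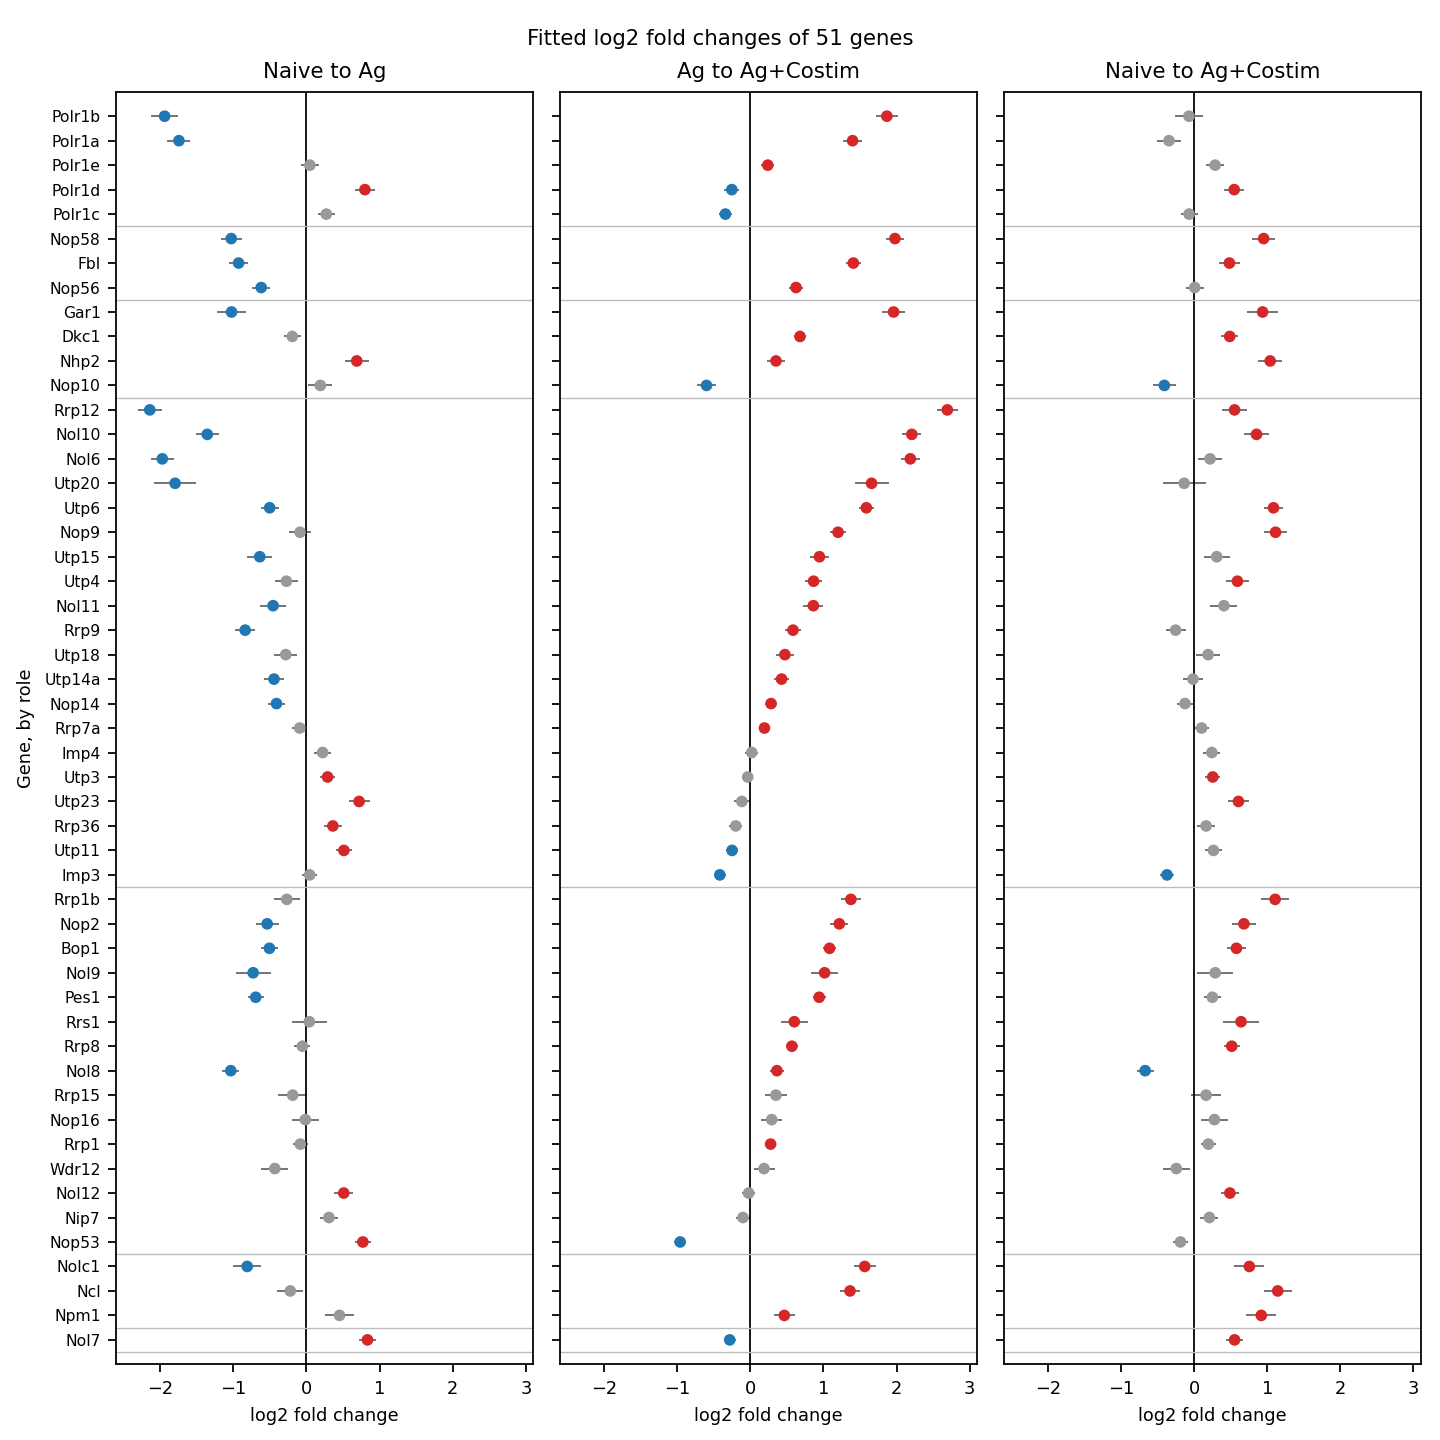
Fitted log2 fold change (horizontal axis) with its SE for 51 genes by role, in the 3 comparisons; red passed the test as higher, blue as lower and grey did not pass. The Ag libraries enter both the left and the middle panel. In the middle panel most points lie to the right of 0, with Nop53, Nop10, Imp3, Polr1c, Utp11, Nol7 and Polr1d blue.

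Other genes of the same pathway, from 5 lists that hold 95 tested genes and no member, were counted beside them. From Naive to Ag 35 fell (36.8%, against 22.5% of all genes tested) and 19 rose (20.0%, against 24.2%), with a median of -0.22. From Ag to Ag+Costim 54 rose (56.8%, against 26.6%) and 11 fell (11.6%, against 26.5%), with a median of 0.33, and from Naive to Ag+Costim 32 rose (33.7%, against 26.9%) and 15 fell (15.8%, against 25.4%), with a median of 0.19. Of 27 other small subunit factors 15 fell (55.6%) and 3 rose (11.1%) with antigen, and 20 rose (74.1%) and 3 fell (11.1%) with costimulation, to be read against the shares of all genes just given. Heatr1 changed by -2.16 ± 0.25 and 2.35 ± 0.21, Pwp2 by -1.84 ± 0.22 and 2.14 ± 0.18, and the acetyltransferase Nat10 by -1.20 ± 0.16 and 1.38 ± 0.13. Of 35 other large subunit factors 13 fell (37.1%) and 4 rose (11.4%), then 20 rose (57.1%) and 3 fell (8.57%). Pelp1 changed by -1.98 ± 0.31 and 2.90 ± 0.27 in these comparisons, whereas Mdn1, a giant ATPase, fell by 1.63 ± 0.28 from Naive to Ag and stood at -1.99 ± 0.28 in Ag+Costim against Naive.

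The last 3 lists hold factors of transcription, snoRNP assembly and RNA decay. Of 10 RNA polymerase I factors 3 fell (30.0%, against 22.5% of all genes tested) and 2 rose (20.0%, against 24.2%) with antigen. With costimulation 2 rose (20.0%, against 26.6%) and 3 fell (30.0%, against 26.5%), shares near those of all genes. The 2 that rose with costimulation were Ubtf, which binds ribosomal DNA, at 0.79 ± 0.10, and Rrn3, which makes the polymerase competent to initiate, at 1.37 ± 0.17. Those that fell were the subunit Znrd1, by 0.72 ± 0.10, the terminator protein Ttf1, by 0.49 ± 0.08, and Taf1b, by 0.46 ± 0.09. Of 11 snoRNP assembly factors 4 rose (36.4%) and 2 fell (18.2%) with antigen, and 7 rose (63.6%) and 0 fell with costimulation. The ATPases Ruvbl1 and Ruvbl2 rose by 0.65 ± 0.14 and 1.07 ± 0.12. Of 12 RNA exosome genes 6 rose (24.2% of all genes tested did) and 2 fell (16.7%) with antigen, and 5 rose (41.7%) and 2 fell (16.7%) with costimulation, when the nuclease Dis3 rose by 1.65 ± 0.17.

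In the comparisons that use Ag, fold changes followed exon length, among these genes and among all genes. Across the 53 members the rank correlation of log2 fold change with exon length was -0.44 from Naive to Ag and 0.29 from Ag to Ag+Costim, beside -0.20 and 0.22 across the 18817 genes. From Naive to Ag+Costim it was -0.13 across the members and 0.006 across all genes. These are correlations across genes within the same libraries, given as a description. The 26 members longer than 3847 bases had median changes of -0.56 and 0.90, and the other 27 had -0.01 and 0.35. After each library's trend on length was removed, 18 members fell and 10 rose with antigen (median -0.15). Of all genes tested, 17.9% then fell and 26.3% rose (median 0.08). With costimulation 34 members rose and 5 fell (median 0.55), against 26.1% and 26.2% of all genes tested (median -0.04). Rrp12, Nol6, Nol10, Polr1a and Polr1b kept their calls in both of these comparisons. The part of fragmentation, amplification or RNA quality in the length trend was not tested.

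**Figure D5:**
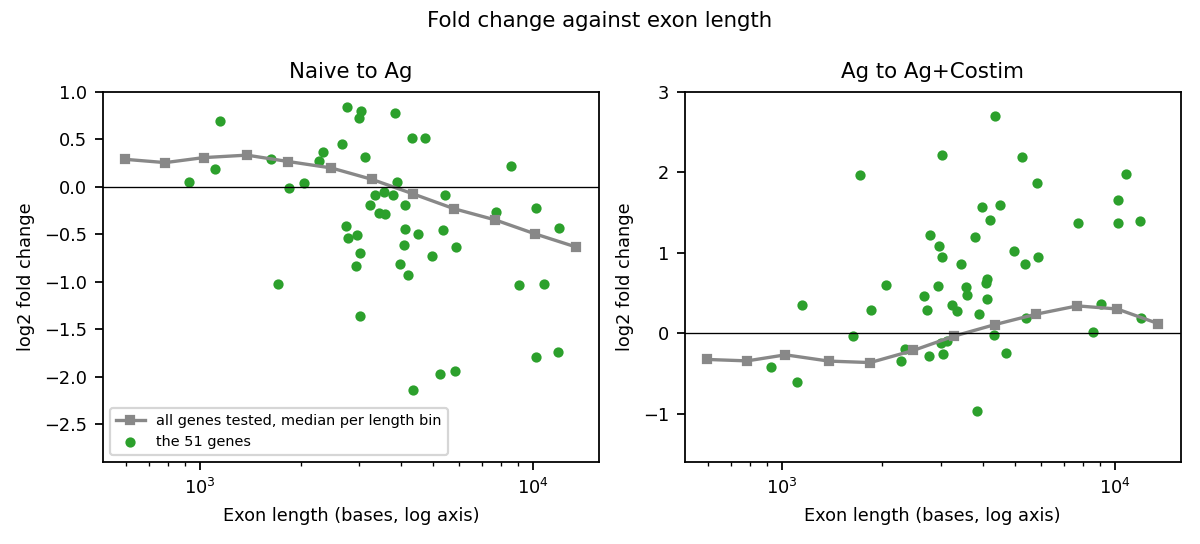
log2 fold change against exon length (bases, log axis) for 51 genes (green) and the median of all genes tested in 12 length bins (grey). The grey line runs from 0.29 down to -0.64 with length from Naive to Ag and from -0.32 up to 0.34, then 0.12, from Ag to Ag+Costim, and the green points scatter widely around it.

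Transcript forms of the members also differed between groups. Transcripts annotated as retained-intron forms held 9.47% and 10.1% of the members' counts in Naive, 4.34% to 7.85% in Ag and 5.29% to 7.25% in Ag+Costim, so the antigen-exposed groups lay below Naive and overlapped each other. Across all protein-coding genes the shares were 7.86% and 8.34%, 4.34% to 6.33%, and 3.44% to 3.94%. Nop56 supplied 47.4% of the members' retained-intron counts. Within Nop56 such forms took 74.2% and 74.8% of counts in Naive, 40.5% to 73.0% in Ag and 47.3% to 68.4% in Ag+Costim, a wide spread within groups. StringTie divides reads among overlapping forms, and no test was made of these shares.

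Splicing values, 1 per group without a spread and without a test here, were available for 570 nodes of 46 members. Psi is the fraction of reads at a node, a piece of a transcript, that include it. It differed by more than 0.1 between Ag and Ag+Costim at 17 nodes (2.98%), beside 7.39% of all 115403 nodes. Of 494 core exon nodes 5 passed that difference (1.01%), beside 2.03% of all 89034 such nodes. All 5 were higher in Ag+Costim, as were 1321 of the 1809 core exon nodes that passed among all genes. In Nol10 the node went from 0.790 to 0.973, and the others lay in Polr1a, Polr1b and, with 2, Rrp12, from 0.861 to 0.882 in Ag and 0.965 to 0.987 in Ag+Costim. Start nodes of Polr1b exchanged places: the first, of 32 bases, went from 0.676 to 0.327 and the next, of 237 bases, from 0.324 to 0.672.

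Promoters were available from RefSeq (GRCm38.p6, 250 bases before to 50 after the start) for 43 of the 53 members. An E-box, CACGTG, which MYC with MAX is known to bind, was searched because MYC is known to drive ribosome biogenesis genes, and CCGGAAGT, a sequence that ETS factors bind, because it was frequent; both were kept after several motifs had been looked at. The letters were sought on both strands. The E-box was in 9 of 43 member promoters (20.9%), beside 11.3% of 11139 tested genes with a promoter and 8.09% of all 27025. The windows below show it in capitals, in 4 members that rose from Ag to Ag+Costim and in Imp4, which did not pass.
Nop2 (chr6:125131811-125131840, plus strand): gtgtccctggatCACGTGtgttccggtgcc
Pes1 (chr11:3963965-3963994, plus strand): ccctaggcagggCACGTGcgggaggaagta
Nol11 (chr11:107189407-107189436, minus strand): cttgagcgttcgCACGTGgtctagactcca
Utp20 (chr10:88826765-88826794, minus strand): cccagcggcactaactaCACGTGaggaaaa
Imp4 (chr1:34439696-34439725, plus strand): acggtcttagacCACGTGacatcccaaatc
Of the 9 genes with the E-box 7 rose from Ag to Ag+Costim and 0 fell, and of the 34 without it 21 rose and 5 fell. Of all genes tested, 26.6% rose and 26.5% fell. The 7 include Rrp7a, whose call 15 of the 21 alternatives changed. Whether the motif goes with the change was not tested. The ETS motif was in 10 of 43 (23.3%), beside 8.74% of tested genes and 4.31% of all. In these windows its letters, or the opposite strand's, are in capitals, for Gar1 and Nol10, which rose, for Nip7, which did not pass, and for Polr1c, which fell.
Gar1 (chr3:129831422-129831451, minus strand): cgcgccgccacACTTCCGGaaacgtcgcgt
Nol10 (chr12:17348401-17348430, plus strand): agtgagcgcgcACTTCCGGagccaggaagt
Nip7 (chr8:107056763-107056792, plus strand): gctttcggtccCCGGAAGTccgccacggta
Polr1c (chr17:46248069-46248098, minus strand): ccacttgacgtCCGGAAGTgaaggacgtgg
Of the 10 genes with it 5 rose and 1 fell, and of the 33 without it 23 rose and 4 fell. These counts too stand beside 26.6% and 26.5% of all genes tested and were not tested. A match describes the letters of the window and does not show that a factor binds there.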

How the data were processed

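The authors aligned single-end reads to mm10 with HISAT2 2.1.0, handled alignments with SAMtools 1.9 and quantified them with StringTie 2.1.0, per the labels and the study's methods. The submitters' processing notes also name DESeq2 1.30.1 and R 4.0.5. The deposited counts per gene and transcript are StringTie's coverage-derived values, not normalized, and FPKM values were deposited per transcript. The annotation release and whether strand was used are not given in the sources used here. Psi was deposited as a fraction per group from Whippet; the Psi difference and probability columns of the authors' own comparison were not used. A deposited sheet from the sequencing core lists read counts per library and percent values for alignment and complexity. A sheet of sample names was not used.

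Of 81881 gene entries 55536 carried an identifier and matched GENCODE vM21; the rest, 0.0508% to 0.121% of a library's counts, were left out. edgeR 4.0.16 in R 4.3.3 fitted 1 term per group to all 12 libraries after TMM scaling and filterByExpr (18817 genes), with a robust quasi-likelihood test, two-sided, and Benjamini-Hochberg adjustment at 0.05. CPM use TMM library sizes for members and library totals for marker genes. Alternatives used DESeq2 1.42.0, limma 3.58.1, RLE and upper-quartile scaling, no filter, the compared groups alone, a replicate block, a length correction, log2(FPKM + 1) and each library left out. Python 3.11.15, numpy 2.4.6, pandas 2.3.3, scipy 1.17.1 and matplotlib 3.10.9 were used. On simulated data for Ag against Ag+Costim (18817 genes, 200 changed by a log2 of 1) the test recovered 130 and called 10 unchanged genes.

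Groups came from the sample labels. The members, roles and pathway lists were chosen with earlier results of these data known. Genes given in every library were Npm1, Ncl, Fbl, Dkc1, Polr1a and, per comparison, the 4 largest rises and 4 largest falls among called members with a mean log2 CPM above 3, 22 genes in all. Another annotated gene overlaps 28 of the 53 members, in 9 cases on the member's own strand.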

Additional observations from a re-analysis of the deposited data

How the results depend on the processing

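Directions of the members' medians held under all 21 alternatives. From Ag to Ag+Costim 25 of the 35 higher and 3 of the 7 lower calls kept under every one, from Naive to Ag 5 of 9 higher and 14 of 23 lower, and from Naive to Ag+Costim 12 of 23 higher and 2 of 4 lower. Upper-quartile scaling gave 11 lower calls and a median of 0.28 from Ag to Ag+Costim, where 33.7% of all genes tested were lower. From Naive to Ag+Costim it gave 8 lower calls and a median of 0.12, with 30.0% of all genes lower. The medians of all genes were -0.24 and -0.18. With log2(FPKM + 1) and limma the median was -0.39 from Naive to Ag, beside -0.07 for all genes tested. From Naive to Ag+Costim 10 members were lower with a median of 0.0397, beside 35.8% and -0.12 for all genes. The median from Naive to Ag was -0.15 after the length correction, beside 0.08 for all genes. Without Ag 4 and Ag+Costim 4 it was -0.18, beside 0.0. Single genes turned sign from Ag to Ag+Costim: Rrp7a to -0.00149 with upper-quartile scaling and -0.0474 with the length correction, which also put Utp3 at 0.24 and Imp4 at -0.33, and Imp4 was at -0.22 on log2(FPKM + 1), where it was -0.27 against Naive. The cause of these changes was not tested.

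Leaving out each library in turn gave 5 to 11 higher and 14 to 23 lower members from Naive to Ag, with medians of -0.31 to -0.18. Of all genes tested, 14.5% to 26.5% were then higher and 14.0% to 24.8% lower. From Ag to Ag+Costim 32 to 37 members were higher and 5 to 7 lower, with medians of 0.44 to 0.59. Shares of all genes were 24.4% to 27.7% higher and 24.0% to 27.0% lower. From Naive to Ag+Costim 16 to 27 members were higher and 2 to 4 lower, with medians of 0.22 to 0.35. There 18.6% to 28.9% of all genes were higher and 16.8% to 27.6% lower. The depth of Ag 4 and the 2 Naive libraries limit the comparisons that use them.

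With the replicate number as a block, 11 members were higher and 20 lower from Naive to Ag, with a median of -0.18, 37 and 6 from Ag to Ag+Costim, and 27 and 3 from Naive to Ag+Costim. The labels do not say that a number marks a shared animal or day. Correlations of same-numbered Ag and Ag+Costim libraries were 0.0159 to 0.0952, others -0.0817 to 0.0746, and 3 of 5 correlated best with their own number. Whether same-numbered libraries share more than the number was not tested.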
